A study of Mus musculus with 11 samples.

Results

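Mecom and Prdm16 encode a pair of related zinc finger transcription factors, and 55 of the 94410 chromatin accessibility peaks in the authors' deposited tables were assigned to them by gene identifier, 54 to Mecom and 1 to Prdm16. ATAC-seq reads accessibility from where a transposase cuts open DNA and adds adapters to it. The libraries were made from purified bone marrow haematopoietic stem cells (HSCs) of mice at steady state, and every group carried the genotype Gfplc3/Gfplc3. LC3 is a protein of autophagosomes, and GFP joined to it is lost as autophagy degrades it. The groups were 3 libraries of old AThi (GFPlo) HSCs, labelled as engaging autophagy, 3 libraries of old ATlo (GFPhi) HSCs, labelled as not engaging it, and 5 libraries of unfractionated young HSCs. Cells were isolated over 2 days, and the day of each library was not stated. Age and sorting by GFP therefore differ together in both comparisons with young HSCs, and their parts cannot be told apart. The sources used here do not give the ages in numbers, the sexes or the number of mice behind each library. A p-value therefore reflects the spread between libraries, which may be technical.

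Mecom has a pair of starts. Transcripts from the distal start encode the long form (MDS1-EVI1, also called PRDM3), which carries a PR domain, a relative of the SET domains of histone methyltransferases. Transcripts from the internal start encode the shorter form EVI1, which lacks it. Prdm16 encodes the closest relative of the long form. Both genes are known to be needed for the maintenance of mouse HSCs, forced expression of either is known from myeloid leukaemias, and PRDM16 is also known for directing brown fat identity.

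In the deposited tables Mecom spans chr3:30005445-30563908 on the minus strand of mm39, 558 kb, and Prdm16 spans chr4:154400582-154721330, 321 kb, also on the minus strand. The Evi1 transcript covers chr3:30005445-30067353, so its start lies 497 kb downstream of the long start. Peak positions below are distances from the long Mecom start or from the Prdm16 start in the direction of transcription.

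The 250 bases before each start are shown because the peaks at these starts are described below. The Prdm16 peak covers the start and all of the bases shown, the Evi1 peak covers its start and part of them, and the peak at the long Mecom start begins just downstream of it, so the bases shown lie outside that peak. They come from RefSeq (GRCm38.p6, minus strand, written 5′ to 3′ along the gene). This is another build than that of the peaks, and the distance between both Mecom starts was 496555 bp in each. Capitals mark GATAA, a core of GATA factor sites, and GACAAGAT, the opening of a sequence known to be bound by EVI1 zinc fingers, on either strand.
Mecom long start: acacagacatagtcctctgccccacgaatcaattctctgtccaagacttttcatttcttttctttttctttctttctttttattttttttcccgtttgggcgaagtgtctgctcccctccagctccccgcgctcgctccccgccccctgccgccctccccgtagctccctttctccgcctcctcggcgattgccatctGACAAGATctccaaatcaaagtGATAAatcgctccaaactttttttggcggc
Mecom Evi1 start: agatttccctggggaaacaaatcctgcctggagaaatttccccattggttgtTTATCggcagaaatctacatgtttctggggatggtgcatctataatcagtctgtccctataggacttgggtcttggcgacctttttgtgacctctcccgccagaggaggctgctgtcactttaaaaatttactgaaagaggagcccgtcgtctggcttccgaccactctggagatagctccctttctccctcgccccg
Prdm16 start: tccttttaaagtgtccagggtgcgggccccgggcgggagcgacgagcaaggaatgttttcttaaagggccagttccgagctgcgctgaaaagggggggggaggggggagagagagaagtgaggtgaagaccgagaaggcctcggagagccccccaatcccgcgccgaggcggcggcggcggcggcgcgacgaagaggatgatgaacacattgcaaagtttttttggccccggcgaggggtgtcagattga

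The long Mecom start and the Prdm16 start share an identical run of 24 bases just after the start, which is shown because only these 2 genes held it.
Shared run: GCGCATGTGCGAAGGTGTCCAAAC
Counting the start as base 1, it lay at bases 27 to 50 of Mecom and at bases 10 to 33 of Prdm16. The Mecom window ends at base 50, so whether the run goes on beyond 24 bases was not seen. Among 32851 RefSeq windows that reach from 250 bases before to 50 bases after a start, at 27025 genes, 2 windows held this run on either strand. Between both Mecom starts the longest shared run was TAGCTCCCTTTCTCC, 15 bases, at -89 to -75 of the long start and -24 to -10 of the Evi1 start, again in 2 windows of all. The Evi1 start and the Prdm16 start shared no run longer than 7 bases. The 250 bases before the start held 50.8% G and C at the long Mecom start, 50.4% at the Evi1 start and 62.4% at Prdm16, where the median of all windows was 52.4%.

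6 motifs, chosen after these sequences had been seen, were searched on both strands of the same windows. GATAA occurred at both Mecom starts and not at Prdm16, and 25.4% of all windows held it. GACAAGAT occurred at the long Mecom start, as in 0.737% of all windows. CCAAT occurred at the Evi1 start and at Prdm16, as in 37.4% of windows. TGANTCA, an AP-1 site, TGTGGT, a RUNX core, and CCGGAAG, an ETS site, occurred at none of the 3 starts, and 7.81%, 16.8% and 8.86% of all windows held them. GATAA can overlap GACAAGAT where both run on, and did not do so here.

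Mecom had 54 peaks, more than all but 3 of the 20791 genes with a symbol, of which the median gene had 3. Between both starts, 25 peaks lay in intron 1 of the long transcript and 16 in intron 2. A single peak lay at the long start, 3 lay within 3 kb of the Evi1 start, 5 lay further downstream and 4 lay upstream of the gene. The authors' mean normalised count per peak, over all libraries, ran from 5.39 to 414 with a median of 24.3, against a median of 27.5 over all peaks. The peak at the long start held the highest mean of the locus, 414 normalised counts or 281 per kb of peak. The peak over the Evi1 start had a mean of 35.6 normalised counts, or 57.7 per kb, so per length the peak at the long start was the stronger of the 2. No values per library were used here, so whether libraries of different groups overlap could not be seen. Group levels below are the levels implied by the authors' mean and fold changes if every library counts equally, and they carry no error of their own.

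In old AThi HSCs 6 Mecom peaks rose against young HSCs and none fell at the authors' adjusted p under 0.05 (DESeq2, Benjamini-Hochberg over all peaks). That is 11.3% of the 53 Mecom peaks with an adjusted p, where the calls over the whole table took in 7.57% of peaks as higher and 2.74% as lower. All 6 lay in introns 1 and 2, between the starts, and none lay at a start. Of the 53 Mecom peaks with an adjusted p, 41 lay between the starts. The median log2 change of the 54 peaks was 0.08, against -0.04 over all peaks, with 29 changes above 0 and 25 below. Most called peaks were wide and strong for this locus, with a median width of 1113 bp over the 7 called in either comparison with young HSCs, against 437 bp over the other 47. The called peaks at 11.03 and 71.6 kb were narrow, at 407 and 379 bp, with means of 33.9 and 29.5 normalised counts. The typical Mecom peak would have needed a log2 change of 0.98 to be called, and 25 of the 54 needed more than a 2-fold change, so smaller changes at the weak peaks were not detectable at this precision.

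The clearest Mecom change was at a 379 bp peak in intron 1, 71.6 kb from the long start (chr3:30492106-30492484). Its implied level was 49.7 normalised counts in old AThi HSCs, 35.7 in old ATlo HSCs and 13.6 in young HSCs. Both old fractions thus stood above young HSCs. The authors' deposited tables put it 3.65-fold above young HSCs in AThi (log2 1.87, SE 0.32, adjusted p = 3.84e-07) and 2.63-fold above them in ATlo HSCs (log2 1.39, SE 0.32, adjusted p = 0.000639). Between the old fractions the authors' deposited table gave a log2 change of 0.48 (95% interval -0.18 to 1.13, adjusted p = 1).

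A wide intron 1 peak 263 kb from the long start (chr3:30300132-30301566, 1435 bp) had implied levels of 123 in old AThi HSCs, 115 in old ATlo HSCs and 72.2 in young HSCs. The authors' deposited tables gave log2 changes of 0.77 (SE 0.20, adjusted p = 0.00226) in AThi and 0.67 (SE 0.20, adjusted p = 0.0109) in ATlo HSCs. An intron 2 peak 412 kb from the long start (chr3:30151310-30152422) stood at 80.5 in old AThi HSCs, 76.8 in old ATlo HSCs and 47.8 in young HSCs, and it too rose in both fractions. Its log2 changes in the authors' deposited tables were 0.75 (SE 0.23, adjusted p = 0.0159) in AThi and 0.68 (SE 0.23, adjusted p = 0.0321) in ATlo HSCs.

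The other 3 peaks were called in old AThi HSCs and not in old ATlo HSCs. In intron 1, 11.03 kb from the start, the implied level was 45.3 in old AThi HSCs, 39.2 in old ATlo HSCs and 23.8 in young HSCs. The authors' deposited tables gave this peak log2 changes of 0.93 (SE 0.28, adjusted p = 0.0153) in AThi and 0.72 (SE 0.28, adjusted p = 0.0862) in ATlo HSCs. The peak at 53.6 kb, also in intron 1, had 154 in old AThi HSCs, 134 in old ATlo HSCs and 108 in young HSCs, with log2 changes of 0.51 (SE 0.18, adjusted p = 0.0464) and 0.31 (SE 0.18, adjusted p = 0.303) per the authors' deposited tables. The intron 2 peak at 348 kb had 110 in old AThi HSCs, 90.05 in old ATlo HSCs and 70.3 in young HSCs, with log2 changes of 0.64 (SE 0.21, adjusted p = 0.0262) in AThi and 0.36 (SE 0.21, adjusted p = 0.312) in ATlo HSCs in the authors' deposited tables. A call in a single fraction does not show a difference between fractions, and how often calls overlap over all peaks was not counted here. The direct comparison of AThi with ATlo gave log2 differences of 0.21 (95% interval -0.40 to 0.82), 0.20 (-0.19 to 0.59) and 0.28 (-0.17 to 0.73) at these peaks, in that order, in the authors' deposited table.

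**Figure D1:**
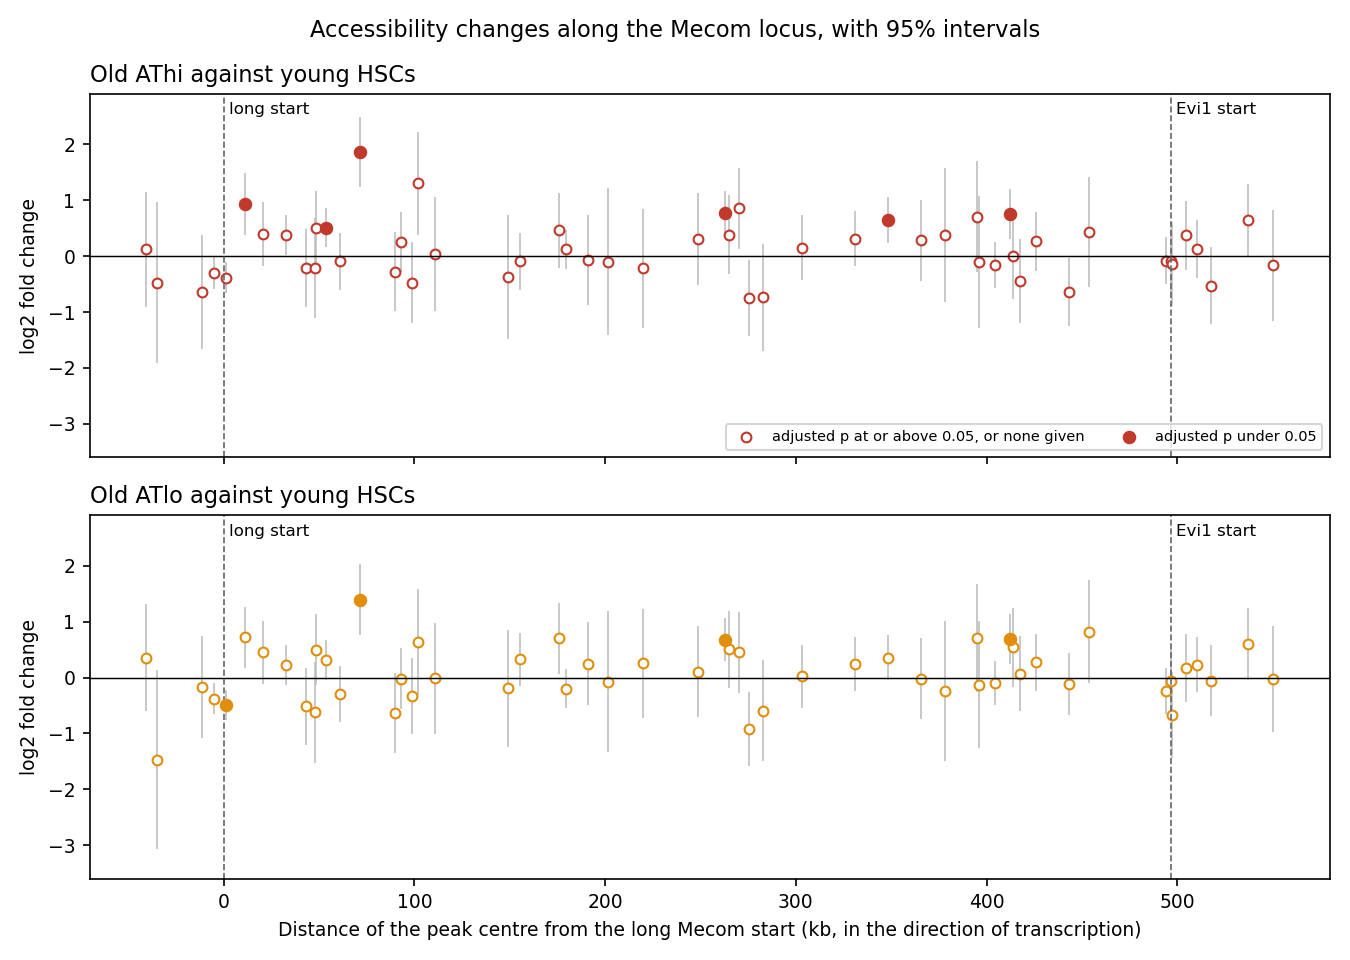
Authors' log2 fold change (y axis) of the 54 Mecom peaks against the distance of the peak centre from the long Mecom start in kb (x axis), for old AThi against young HSCs (top) and old ATlo against young HSCs (bottom). Bars are 95% intervals from the SE, and filled points have an adjusted p under 0.05: the 6 filled points in the top panel all lie between the 2 dashed starts and above 0. Of the 54 peaks, 41 lie between the starts.

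In old ATlo HSCs 3 Mecom peaks rose against young HSCs and 1 fell. The 3 were those at 71.6, 263 and 412 kb, and all of them were also among the 6 of old AThi HSCs. They make up 5.66% of the Mecom peaks with an adjusted p, where 6.88% of all peaks were called higher in this comparison and 2.54% lower. The median log2 change of the 54 peaks was 0.05, against -0.03 over all peaks. With the strongest promoters moved to a median of 0, which raises every log2 change in this comparison by 0.31, 11 Mecom peaks were called higher and none lower. The same scaling raises the AThi changes by 0.22 and gave 9 higher and 0 lower Mecom peaks there. Over all peaks it gave 12631 higher and 802 lower calls in AThi HSCs and 16007 and 296 in ATlo HSCs, against 7004 and 2539 and against 6370 and 2351 as deposited.

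The peak that fell lies at the long Mecom start (chr3:30562238-30563707, 1470 bp), just downstream of it, with its upstream edge 117 bp inside the MDS1 transcript, which starts nearest to it. Its implied level was 370 normalised counts in old AThi HSCs, 342 in old ATlo HSCs and 483 in young HSCs. Both old fractions stood below young HSCs here, opposite to the called intron peaks. The authors' deposited tables gave log2 changes of -0.38 (SE 0.14, adjusted p = 0.0516) in AThi, which did not pass, and -0.50 (SE 0.14, adjusted p = 0.00642) in ATlo HSCs. The ATlo call depends on which scaling is chosen. With the strongest promoters at a median of 0 the ATlo change was -0.19 (adjusted p = 0.405) and was not called. With all peaks at a median of 0 it was still called. In the AThi comparison the change passed when p-values were adjusted over peaks with a mean of at least 10 alone (adjusted p = 0.0473). Over all promoter peaks within 1 kb of a start the median log2 change was -0.11 in AThi and -0.15 in ATlo HSCs. A strong intergenic peak 5.3 kb upstream of the long start (chr3:30568581-30569842) had 209 in old AThi HSCs, 199 in old ATlo HSCs and 258 in young HSCs, and neither change passed (log2 -0.30, SE 0.15, adjusted p = 0.194 in AThi and -0.37, SE 0.14, adjusted p = 0.0818 in ATlo HSCs, in the authors' deposited tables).

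The 3 peaks at the Evi1 start did not pass in either comparison with young HSCs. The peak over that start (chr3:30066953-30067568) had implied levels of 34.3 in old AThi HSCs, 35.2 in old ATlo HSCs and 36.5 in young HSCs. Its log2 changes of -0.09 (SE 0.30) in AThi and -0.06 (SE 0.29) in ATlo HSCs, in the authors' deposited tables, leave 95% intervals of -0.67 to 0.49 and -0.62 to 0.50. A 284 bp peak just downstream stood at 18.8 in old AThi HSCs, 13.0 in old ATlo HSCs and 20.7 in young HSCs, and a peak 2 to 3 kb upstream at 64.7, 57.9 and 68.5 in the same groups. All 3 of these peaks had negative changes in both comparisons, and the signs turned positive under the scaling to the strongest promoters except at the 284 bp peak in ATlo HSCs. The 5 peaks downstream of the Evi1 start had AThi changes between -0.53 and 0.64 and ATlo changes between -0.05 and 0.60 on the log2 scale, none called.

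Several Mecom peaks lay just outside the threshold. A weak intron 1 peak at 102 kb, with a mean of 12.6 normalised counts, had implied levels of 20.1 in old AThi HSCs, 12.7 in old ATlo HSCs and 8.14 in young HSCs. The authors' deposited table gave 1.31 (SE 0.47, adjusted p = 0.0520) for its AThi change, and it passed under both rescalings and under the minimum mean of 10. An intron 2 peak at 276 kb stood at 18.2 in old AThi HSCs, 16.1 in old ATlo HSCs and 30.7 in young HSCs. It had the most negative change between the starts in both comparisons, with log2 changes of -0.75 (SE 0.34, adjusted p = 0.161) in AThi and -0.93 (SE 0.34, adjusted p = 0.0591) in ATlo HSCs in the authors' deposited tables. In intron 1 at 270 kb, the authors' deposited table gave an AThi change of 0.85 (SE 0.37, adjusted p = 0.125). The most negative value of the locus, -1.47 (SE 0.82) for ATlo against young HSCs in the authors' deposited table, came from the weakest peak, 35 kb upstream, with a mean of 5.39 and no adjusted p.

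**Figure D2:**
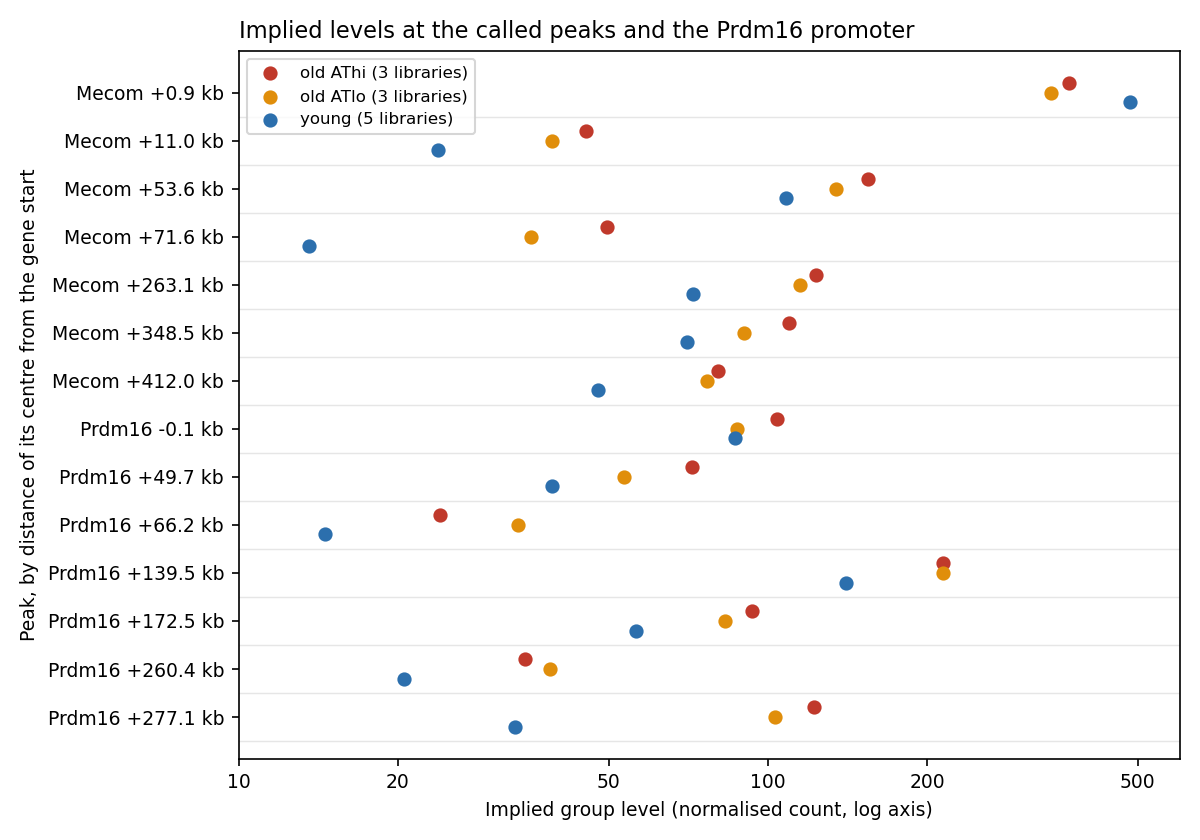
Implied group levels in normalised counts (x axis, log scale) at the 7 Mecom peaks called in a comparison with young HSCs, the Prdm16 promoter peak and the 6 called peaks inside Prdm16, in old AThi, old ATlo and young HSCs. At every called peak except that of the long Mecom start (370 in AThi, 342 in ATlo and 483 in young) both old fractions lie to the right of young HSCs.

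Between the old fractions no Mecom or Prdm16 peak differed at an adjusted p under 0.05, and neither did any other peak of the table: 0 of 94410 peaks (0%) were called by the authors' DESeq2 test, with 1683 peaks (1.78%) at an unadjusted p under 0.05. By their labels the old libraries form 3 pairs, an AThi and an ATlo library from each old sample, and whether the authors' fit took the pairs into account is not stated in the sources used here. No Mecom peak had an unadjusted p under 0.05. The smallest belonged to an intron 1 peak at 179 kb (chr3:30384127-30384999), with 117 normalised counts in old AThi HSCs, against 93.8 in old ATlo HSCs, a log2 change of 0.32 (SE 0.20, unadjusted p = 0.11) per the authors' deposited table. Next came an intron 2 peak at 443 kb, with 29.6 in AThi, against 42.7 in ATlo HSCs (log2 -0.53, SE 0.34, unadjusted p = 0.121), and an intron 1 peak at 156 kb, with 40.5 in AThi, against 54.2 in ATlo HSCs (-0.42, SE 0.29, unadjusted p = 0.144), both in the authors' deposited table. At the 7 called Mecom peaks the AThi over ATlo change lay between 0.07 and 0.48. These peaks were picked by their changes against young HSCs, 6 of them through a rise in AThi HSCs, which favours positive values here. Over the other 47 Mecom peaks the median AThi over ATlo change was -0.001, with 23 changes above 0 and 24 below. Both comparisons with young HSCs share the 5 young libraries, so similar changes in them are not independent of each other.

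**Figure D3:**
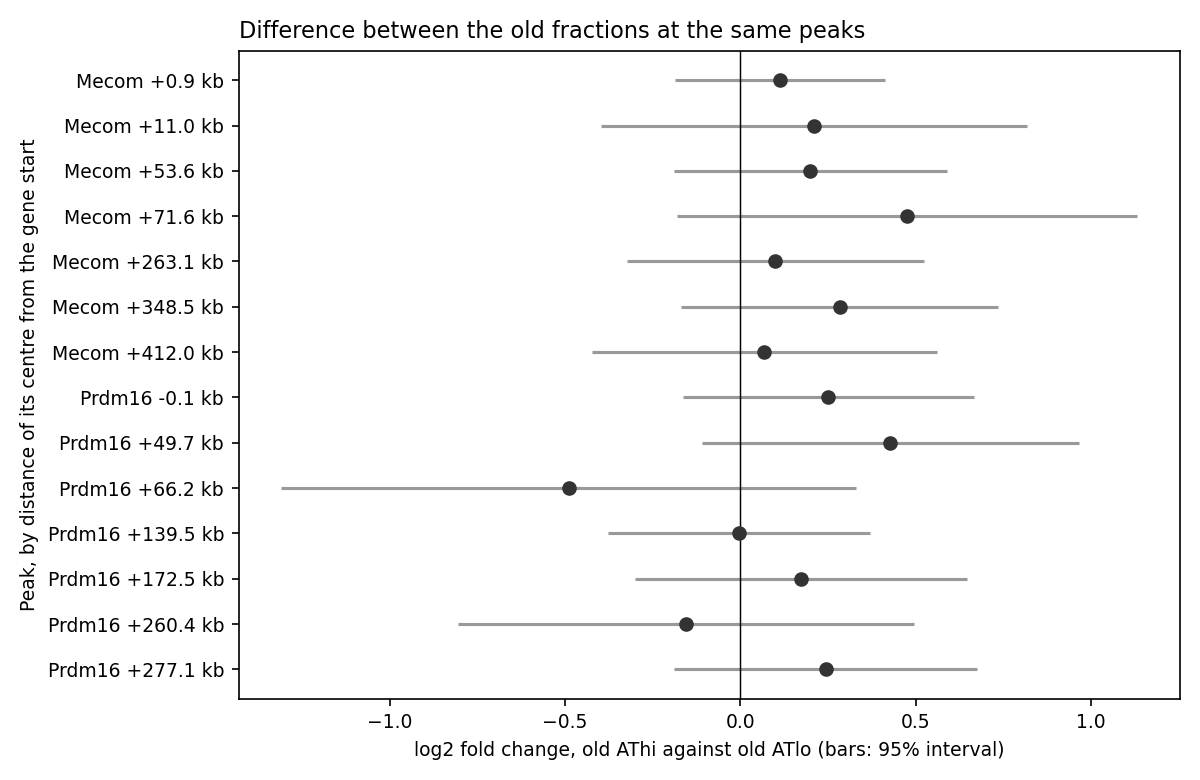
Authors' log2 fold change of old AThi against old ATlo HSCs (x axis, with 95% intervals) at the called Mecom peaks, the Prdm16 promoter peak and the called peaks inside Prdm16. Every interval spans 0, including the one at the Mecom peak 71.6 kb from the start (0.48, -0.18 to 1.13).

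Prdm16 had a single peak by gene identifier, as did 23.3% of genes. It covers the Prdm16 start (chr4:154721119-154721832, 714 bp) with a mean of 91.7 normalised counts, or 128 per kb. Its implied level was 104 in old AThi HSCs, 87.6 in old ATlo HSCs and 86.7 in young HSCs. The log2 changes were 0.27 (SE 0.19, adjusted p = 0.424) in AThi and 0.01 (SE 0.19, adjusted p = 0.978) in ATlo HSCs against young HSCs in the authors' deposited tables. AThi over ATlo was 0.25 (95% interval -0.16 to 0.67) in the authors' deposited table. None of these passed.

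The single peak reflects how peaks were assigned, by nearest start site. Among all peaks, 27 were annotated to an intron or exon of Prdm16, and 0 of them carried the Prdm16 identifier, whereas all 46 peaks annotated to an exon or intron of Mecom carried that of Mecom. Inside Prdm16 or up to 3 kb before its start lay 33 peaks, of which 32 were assigned to another gene: 12 to Gm13133, 9 to Gm52688, 6 to Arhgef16, 4 to 5930403L14Rik and 1 to Prdm16os. Their means ran from 8.38 to 312 normalised counts. These 32 peaks are not members by identifier, and they are given here because the account of Prdm16 turns on them.

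Of the 33 peaks at the Prdm16 locus, 4 rose in old AThi HSCs and 4 in old ATlo HSCs, 2 of them in both, and none fell. That is 12.1% in each comparison, against the 7.57% and 6.88% of all peaks given above. The peaks of this locus were also stronger, with a median mean of 46.8 normalised counts against 27.5 over all peaks. Their median SE in the AThi comparison was 0.26, against 0.33 over all peaks. The part of this precision in the shares was not tested. The median log2 change was 0.26 in AThi and 0.15 in ATlo HSCs. All 6 peaks that rose in either fraction were intronic, and the peak over the Prdm16 start did not pass. Of the 33 peaks, 27 were annotated to an intron or exon of Prdm16.

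The largest change was at a 1002 bp peak in intron 4 of Prdm16, 277 kb from the start (chr4:154443698-154444699), assigned to Arhgef16 in the tables. Its implied level was 122 in old AThi HSCs, 103 in old ATlo HSCs and 33.3 in young HSCs. Against young HSCs the authors' deposited tables put it 3.66-fold higher in AThi (log2 1.87, SE 0.21, adjusted p = 1.27e-15) and 3.09-fold higher in ATlo HSCs (log2 1.63, SE 0.21, adjusted p = 1.09e-11). By p it ranked 125th of the higher peaks of the AThi table and 158th of the ATlo table, while the Mecom intron 1 peak at 71.6 kb, with about the same AThi fold change, ranked 1141st and 2327th. The old fractions differed here by 0.24 (95% interval -0.19 to 0.68) in the authors' deposited table.

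A strong intron 2 peak of Prdm16 at 139 kb (chr4:154581354-154582321) had 214 in old AThi HSCs, 214 in old ATlo HSCs and 140.5 in young HSCs. It rose by 0.61 in each old fraction (SE 0.18, adjusted p = 0.00945 in AThi, and SE 0.17, adjusted p = 0.00867 in ATlo HSCs) in the authors' deposited tables. The peak in intron 3 at 173 kb had 93.5 in old AThi HSCs, 82.9 in old ATlo HSCs and 56.3 in young HSCs, and an intron 1 peak at 49.7 kb had 71.9, 53.4 and 39.1 in the same groups. Both passed in AThi alone, with log2 changes of 0.73 (SE 0.22, adjusted p = 0.0137) and 0.88 (SE 0.25, adjusted p = 0.00688) per the authors' deposited table. Calls in ATlo alone were made in intron 1 at 66.2 kb, with 24.1 in old AThi HSCs, 33.8 in old ATlo HSCs and 14.6 in young HSCs, and in intron 3 at 260 kb, with 34.7, 38.7 and 20.6. The authors' deposited table gave these log2 changes of 1.21 (SE 0.37, adjusted p = 0.0177) and 0.91 (SE 0.29, adjusted p = 0.0268). AThi over ATlo was not called at any of these 4 peaks (adjusted p = 1 each).

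**Figure D4:**
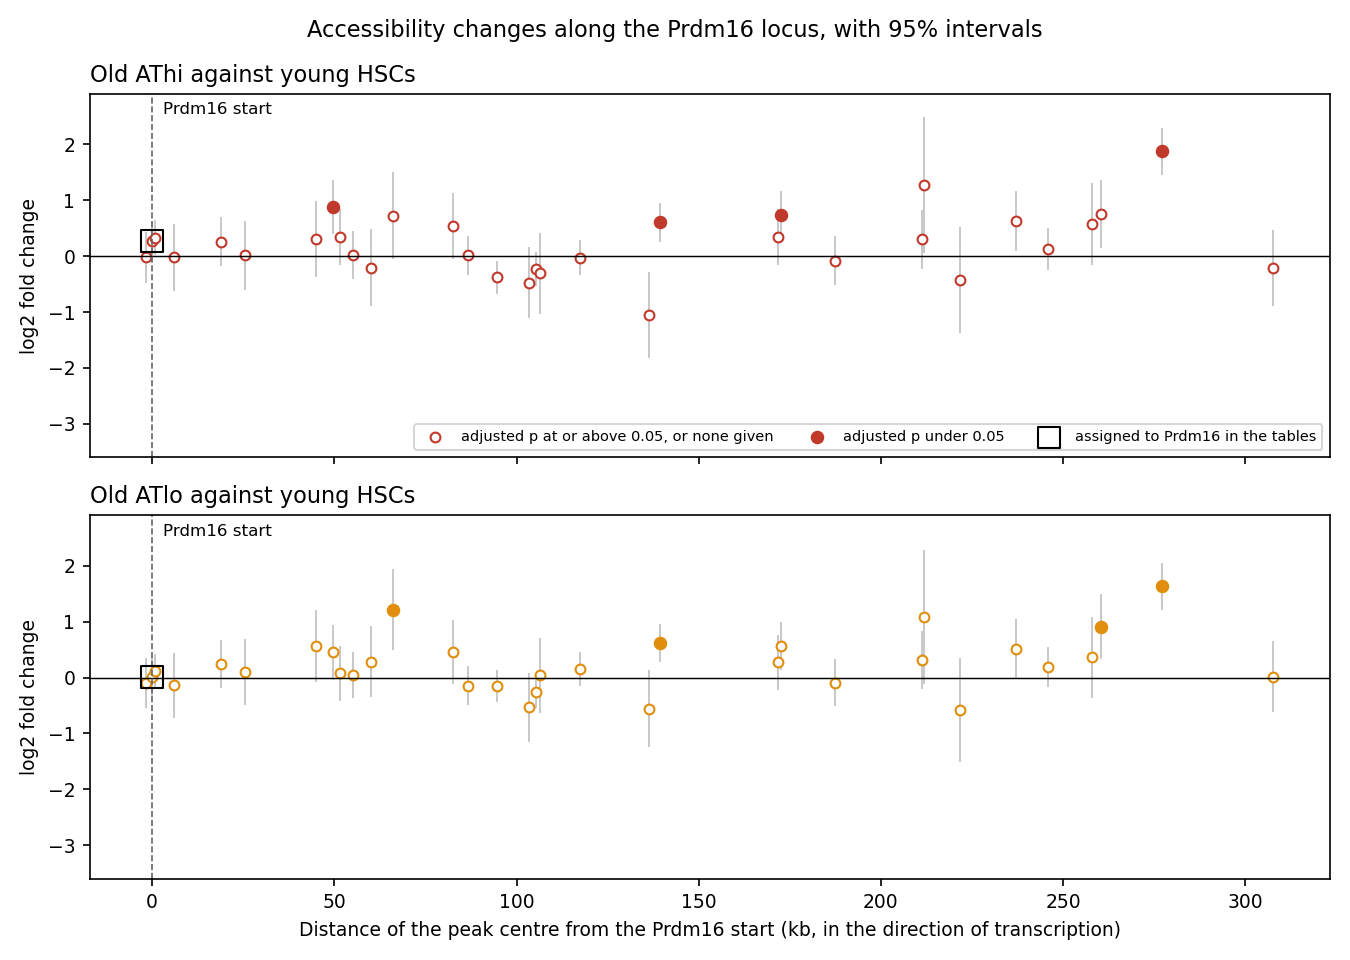
Authors' log2 fold change (y axis) of the 33 peaks inside Prdm16 or up to 3 kb before its start against the distance of the peak centre from the Prdm16 start in kb (x axis), for old AThi (top) and old ATlo (bottom) against young HSCs, with 95% intervals. Filled points have an adjusted p under 0.05, and the square marks the single peak that the tables assign to Prdm16: the filled points all lie away from the start. Of the 33 peaks, 27 are annotated to an intron or exon of Prdm16.

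The strongest peak inside Prdm16, in intron 1 at 94.7 kb (chr4:154625786-154627434), had a mean of 312 normalised counts and stood at 264 in old AThi HSCs, 309 in old ATlo HSCs and 344 in young HSCs. Its AThi change of -0.38 (SE 0.15, adjusted p = 0.0768) per the authors' deposited table did not pass. In intron 2 at 136 kb, beside the called peak of that intron, the authors' deposited table gave -1.05 (SE 0.39, adjusted p = 0.0636) in AThi HSCs, with 13.6 in old AThi HSCs, 19.1 in old ATlo HSCs and 28.1 in young HSCs. At 237 kb an intron 3 peak had 0.63 (SE 0.28, adjusted p = 0.134) in AThi HSCs in the authors' deposited table. Between the old fractions the smallest unadjusted p inside Prdm16, 0.119, belonged to the peak at 49.7 kb. Changes of unequal sign thus stood side by side at both loci, and no lower change inside Prdm16 was called.

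**Figure D5:**
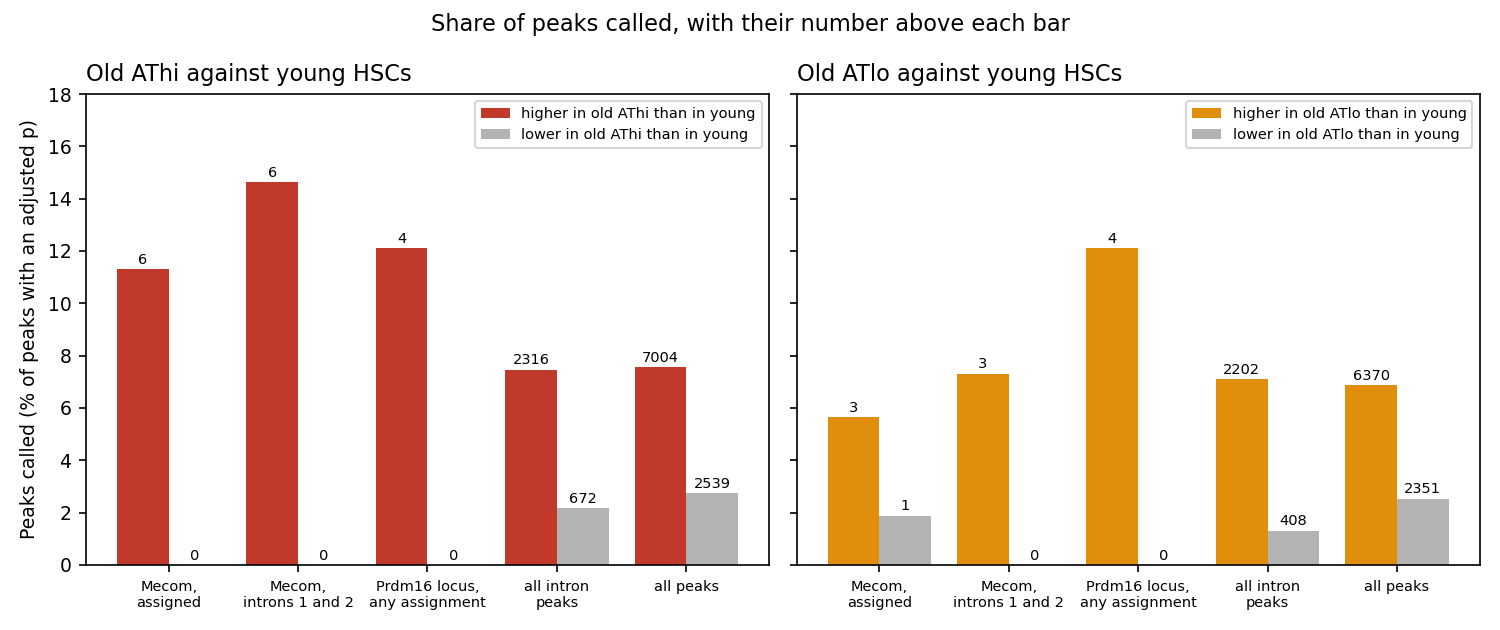
Share of peaks called higher (coloured) and lower (grey) in percent of the peaks with an adjusted p, for old AThi (left) and old ATlo (right) against young HSCs, at Mecom, between the Mecom starts, at the Prdm16 locus, in all introns and over all peaks, with the number of peaks above each bar. In the AThi comparison 11.3% of Mecom peaks and 12.1% of Prdm16 locus peaks were higher, and 7.57% of all peaks. In the ATlo comparison 5.66% of Mecom peaks and 12.1% of Prdm16 locus peaks were higher, and 6.88% of all peaks. These shares were not tested against each other.

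The genes most like Mecom by the share of their peaks called higher and lower in both comparisons, among 95 genes with between 27 and 108 peaks, were Fut8, Magi1 and Ankrd44. Of the Mecom peaks 11.1% were called higher in AThi and 5.56% in ATlo HSCs, counting all 54. For Fut8, which encodes a fucosyltransferase, the shares were 10.8% and 5.41% of 37 peaks. They were 10.0% and 6.67% of 30 peaks for Magi1, a scaffold protein of cell junctions, and 11.1% and 7.41% of 27 peaks for Ankrd44. This likeness rests on 4 shares from 2 comparisons with the same young libraries. For Prdm16, with its 1 peak uncalled, 7061 of 8691 genes of like peak number had the same shares, so none is named.

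All 13 other PRDM genes had a peak. In old AThi HSCs accessibility rose at 3 of these genes, and at 1 of the 3 another peak fell, where 23.8% of all genes had a higher and 10.6% a lower peak. In old ATlo HSCs 2 rose and none fell, against 21.8% and 10.1% of all genes. By peaks, 5 of 76 with an adjusted p (6.58%) were higher and 2 (2.63%) lower in AThi HSCs, and 2 (2.63%) higher and 0 lower in ATlo HSCs. A distal peak of Prdm13, which acts in neural development, rose by 2.42 (SE 0.39) in AThi and 2.77 (SE 0.38) in ATlo HSCs on the log2 scale per the authors' deposited tables. For a distal peak of Prdm1, which encodes the repressor BLIMP1 of plasma cells, the authors' deposited tables gave 1.62 (SE 0.34) and 1.42 (SE 0.34). The third gene, Prdm14, known from germ cells, had 4 called peaks in AThi HSCs, all in introns of a neighbouring gene. The authors' deposited table gave them log2 changes of -1.13 (SE 0.27), -0.71 (SE 0.23), 1.08 (SE 0.32) and 1.04 (SE 0.30), and none of the 4 passed in ATlo HSCs.

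Among 19 corepressors and histone methyltransferase partners, 5 had a higher and 2 a lower peak in old AThi HSCs, 2 of them both, and 5 each in old ATlo HSCs, 4 of them both. The shares over all genes were 23.8% higher and 10.6% lower in AThi HSCs and 21.8% and 10.1% in ATlo HSCs. By peaks, 7 of 117 (5.98%) were higher and 3 (2.56%) lower in AThi HSCs, where 7.57% and 2.74% of all peaks were. In ATlo HSCs 6 (5.13%) were higher and 6 (5.13%) lower, where 6.88% and 2.54% of all peaks were. In intron 1 of Dnmt3a, a DNA methyltransferase, accessibility rose by 1.45 (SE 0.29) in AThi and 1.16 (SE 0.29) in ATlo HSCs on the log2 scale per the authors' deposited tables. Of its promoter peaks, 1 fell in both fractions, with -0.51 (SE 0.15) and -0.49 (SE 0.15), and another in AThi HSCs, with -0.61 (SE 0.18), in the authors' deposited tables. For Ctbp2, a corepressor that binds EVI1 and PRDM16, the authors' deposited tables gave 1.08 (SE 0.26) and 1.22 (SE 0.25) at an intron 1 peak and 1.64 (SE 0.43) and 1.95 (SE 0.41) at another, all called. The Ctbp2 promoter fell in both fractions, by 0.46 (SE 0.15, adjusted p = 0.0211) in AThi and by 0.52 (SE 0.14, adjusted p = 0.0064) in ATlo HSCs, in the authors' deposited tables. A distal peak of Smad3, a TGF-β effector that EVI1 binds, was likewise called, at 1.15 (SE 0.23) and 1.28 (SE 0.23) in the authors' deposited tables, while its promoter was lower in ATlo HSCs (-0.46, SE 0.15). At Smad2 a distal peak rose in both fractions (1.43, SE 0.43 and 1.39, SE 0.42), another was called in AThi HSCs (0.76, SE 0.22), and the promoter fell in ATlo HSCs (-0.47, SE 0.15), in the authors' deposited tables. An intron 4 peak of the methyltransferase gene Ehmt1 was called in ATlo HSCs (0.80, SE 0.26) in the authors' deposited tables. The Sin3a promoter fell in ATlo HSCs (log2 -0.48, SE 0.15, adjusted p = 0.0238) per the authors' deposited table. With the strongest promoters at a median of 0 no gene of this list had a lower peak, and 8 had a higher one in each comparison.

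Of 30 genes known as targets or partners of either factor in blood or fat, 16 had a higher and 5 a lower peak in old AThi HSCs, 3 of them both, and 15 and 8 in old ATlo HSCs, 2 of them both. Of all genes, 23.8% and 10.6% had such peaks in AThi and 21.8% and 10.1% in ATlo HSCs, but the listed genes carry 335 peaks, where the median gene has 3, so the counts by gene are not on an equal footing. By peaks, 32 of 332 (9.64%) were higher and 6 (1.81%) lower in AThi HSCs, where 7.57% and 2.74% of all peaks were. In ATlo HSCs 25 (7.53%) were higher and 10 (3.01%) lower, where 6.88% and 2.54% of all peaks were. The median log2 changes were 0.03 in AThi and 0.05 in ATlo HSCs. The authors' deposited tables gave rises of 0.90 (SE 0.17) in AThi and 0.56 (SE 0.17) in ATlo HSCs on the log2 scale at the promoter of Gata2, a stem cell factor, and of 0.87 (SE 0.16) and 0.71 (SE 0.16) in intron 1 of Adgrg1, which encodes an adhesion receptor. For intron 1 of Tgfbr1, a TGF-β receptor gene, the authors' deposited tables gave 2.40 (SE 0.38) and 1.85 (SE 0.38), and for a peak 2 to 3 kb from the Fos start 1.12 (SE 0.18) and 0.88 (SE 0.18). A distal peak of each gene was lower, that of Tgfbr1 in AThi HSCs (-0.85, SE 0.24) and that of Fos in ATlo HSCs (-1.15, SE 0.39), in the authors' deposited tables. A peak assigned to Ucp1, the uncoupling protein of brown fat, lies in an intron of another gene, with 0.95 (SE 0.17) and 0.63 (SE 0.17) in the authors' deposited tables.

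The labelled cell type was checked at defining markers. A promoter peak was found for 9 of 10 HSC markers, with a median implied level of 107 in old AThi HSCs, 93.8 in old ATlo HSCs and 126 in young HSCs. The list includes Cd34, a marker gained by progenitors. In young HSCs the median is the level of the Cd34 promoter peak itself, so it does not speak for HSC identity. For lymphoid markers 4 of 8 genes had one, with medians of 11.6, 11.7 and 16.1, and for myeloid markers 2 of 9, with 14.2, 19.0 and 28.2, in the same order of groups. Erythroid markers had one at 3 of 7 genes (224, 212 and 196), megakaryocyte markers at 6 of 7 (189, 172 and 189) and stromal and endothelial markers at 8 of 10 (95.9, 91.6 and 76.3). Of the stromal and endothelial peaks 10 of 67 (14.9%) were higher and 2 (2.99%) lower in each old fraction. A higher peak was found at 5 of the 10 genes, and 2 of these 5 also had a lower one. Of all genes 23.8% had a higher peak in AThi and 21.8% in ATlo HSCs. The 10 genes carry 68 peaks, where the median gene has 3, so the counts by gene are not on an equal footing. The shares over all peaks were 7.57% higher and 2.74% lower in AThi and 6.88% and 2.54% in ATlo HSCs. The higher stromal and endothelial peaks included an exon 3 peak of Plvap with log2 changes of 1.83 (SE 0.25) in AThi and 1.66 (SE 0.25) in ATlo HSCs in the authors' deposited tables. The 2 lower peaks were distal peaks of Cxcl12 (-1.37, SE 0.31 and -1.29, SE 0.29) and Kdr (-0.47, SE 0.16 and -0.46, SE 0.16), in the same order of fractions. Both genes also had peaks called higher in each fraction. The Cxcl12 promoter had 1.27 (SE 0.19) and 0.97 (SE 0.19) in the authors' deposited tables. Another distal Kdr peak had 1.69 (SE 0.29) and 2.05 (SE 0.27) there. The megakaryocyte markers had 5 of 29 peaks (17.2%) higher in AThi HSCs, and 2 (6.90%) higher and 1 (3.45%) lower in ATlo HSCs. Of 29 myeloid peaks none was higher and 2 (6.90%) were lower in each old fraction, at Csf1r, a macrophage receptor gene, and Fcgr3, an Fc receptor gene. At Fcgr3 the called peak was not the same in both fractions. It was the promoter peak in AThi HSCs (-1.66, SE 0.50) and a distal peak in ATlo HSCs (-0.72, SE 0.15), in the authors' deposited tables. The distal Csf1r peak had -1.75 (SE 0.32) in AThi and -2.49 (SE 0.35) in ATlo HSCs in the authors' deposited tables. Of 22 lymphoid peaks 1 was higher in AThi HSCs, and none of 15 erythroid peaks was called. Of 83 peaks at HSC markers 10 (12.05%) were higher and 2 lower in AThi HSCs, and 7 (8.43%) and 2 in ATlo HSCs. At HSC markers the authors' deposited tables gave 0.79 (SE 0.16) in AThi and 0.59 (SE 0.16) in ATlo HSCs for the Fgd5 promoter, and -0.87 (SE 0.20) and -0.62 (SE 0.19) for that of Cd34, a marker gained by progenitors. In bulk libraries a change in the mix of cells and a change within each cell cannot be told apart, and the part of either in the Mecom and Prdm16 values was not tested.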

How the data were processed

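The members and gene lists were chosen with earlier results of these data known. Per the submitters' processing notes, the tools were BWA, Trim Galore with cutadapt, MACS2, featureCounts, ChIPseeker and DESeq2, without versions or settings. Read shifting for the transposase, read filters and peak merging, which set the peaks that exist, were not given in the sources. The deposited files are 3 comparison tables, each of 94410 peaks, and hold 0 columns of values per library, so no model was refitted and depth per library is unknown. The authors' mean per peak is a normalised count, used as a signal. Fold changes and their SEs are the deposited log2 values. The Wald score, p-values and adjusted p-values are the authors' own deposited values. An adjusted p was missing for 1831 weak peaks in each comparison with young HSCs, 1 of them at Mecom, and these were not called.

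Peaks were called at an adjusted p under 0.05, and 95% intervals are normal intervals from the SE. Implied group levels solve the authors' mean and fold changes for 3, 3 and 5 libraries of equal weight. The adjustment for rescaled changes was tested on simulated data. Genes were matched to RefSeq symbols (20791 of 20810 identifiers). The notes name GRCm38 and mm39. Coordinates were taken as mm39, since 296 of 20791 genes shared their last base with the GRCm38.p6 table. Named peaks were the promoter peaks, the called peaks, the strongest peak, the 3 closest to a call in each comparison with young HSCs and the 3 with the smallest p between old fractions, per gene, and by the same rule inside Prdm16, where the last of these are given in part. For lists, up to 8 PRDM genes, 6 genes of the other lists and 3 of a marker list with the smallest p could be named. An item that this rule selected is left out of the text. Alternatives were a threshold of 0.01, no independent filtering, a minimum mean of 10, scaling to the strongest promoters (the top 10%) or to all peaks, and assignment by gene span. Python 3.11.15, pandas 2.3.3, NumPy 2.4.6, SciPy 1.17.1 and Matplotlib 3.10.9 were used.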

Additional observations from a re-analysis of the deposited data

How the results depend on the processing

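Without independent filtering no count of calls at Mecom or Prdm16 changed, and with all peaks at a median of 0 every count stayed within 1.5 times. At an adjusted p under 0.01, Mecom kept 2 higher calls in AThi and 1 in ATlo HSCs, and kept its 1 lower call in ATlo HSCs. With a minimum mean of 10, 1 Mecom peak, that at the long start, was called lower in AThi HSCs. With the strongest promoters at a median of 0, 11 Mecom peaks were called higher and 0 lower in ATlo HSCs. Counting peaks inside Prdm16 gave 4 higher calls in each comparison in place of 0, by construction, since 32 peaks were added. Among the peaks named by the rule, the strongest-promoter scaling turned the sign of 12 changes, none of them called, and uncalled changes near 0 at other peaks turned with it. At the Evi1 start these became 0.14, 0.13 and 0.085 (AThi) and 0.070 and 0.26 (ATlo). Elsewhere at Mecom they became 0.13 (156 kb, AThi), 0.11 (179 kb, ATlo) and 0.20 (443 kb, ATlo), and between the old fractions -0.024 at 412 kb and -0.020 at the peak 5.3 kb upstream. Inside Prdm16 they became 0.019 (60.1 kb, AThi) and 0.16 (94.7 kb, ATlo). No paired analysis was possible because the tables hold no values per library, and for the same reason leaving out libraries, blocking on the pair and a count test were not run. Precision at weak peaks limits what can be called: 25 of 54 Mecom peaks needed more than a 2-fold change in AThi and 22 in ATlo HSCs.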

Other observations

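Peaks next to Mecom that belong to other genes also changed. A distal peak of Mannr, the gene on the far side of the Evi1 transcript's end, had log2 changes of 1.48 (SE 0.35, adjusted p = 0.000527) in AThi and 1.497 (SE 0.34, adjusted p = 0.000368) in ATlo HSCs in the authors' deposited tables, while the Mannr promoter did not pass. Upstream of the long start, a distal peak of Actrt3 with a mean of 113 normalised counts rose by 0.78 (SE 0.19, adjusted p = 0.000994) in AThi HSCs, and its ATlo change of 0.49 (SE 0.19, adjusted p = 0.0854) did not pass, in the authors' deposited tables. Beside the Prdm16 start, neither the 4 peaks of 5930403L14Rik nor the 2 peaks of Prdm16os, which is transcribed next to it, were called in any comparison.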
